A study of Mus musculus with 2 samples.

Results

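The 8 genes Car4, Ednrb, Apln, Aplnr, Gpihbp1, Plvap, Vwf and Vcam1, which mark kinds of lung endothelial cell, were followed in dissociated mouse lungs at low and high metastatic burden. They were given as a list of names, 8 of 27999 genes listed per library. Levels were read in cells whose unique molecular identifiers (UMIs, 1 per captured RNA molecule) of the endothelial genes Cldn5, Cdh5 and Ramp2 summed to 5 or more per 10000 UMIs. This gate took 1003 of 2473 cells at low burden and 281 of 3033 cells at high burden, 1284 of 5506 in all. Both lungs came from female FVB/NJ mice injected through the tail vein at 10 weeks of age with Met-1, a carcinoma line of the mouse mammary gland. The low-burden lung was collected at week 1 and the high-burden lung at week 3, with 1 mouse and 1 droplet library per group. No lung without injected cells was analysed here, and burden, time and mouse cannot be told apart. With 1 library per group there is no replicate check of any difference between the groups and no test of it. All intervals are at 95% and cover counting error only.

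Gas exchange in the lung takes place across capillaries built of aerocytes and general capillary cells. Aerocytes are large, flat cells pressed against the alveolar surface, and general capillary cells divide after injury and can give rise to both. Car4, Ednrb and Apln are known marks of mouse aerocytes, Aplnr, Gpihbp1 and Plvap are known for general capillary cells, and Vwf and Vcam1 for larger vessels, above all veins. Apln encodes apelin, a secreted peptide, and Aplnr its receptor, so that ligand and receptor are normally made by different capillary cells. Apelin is also a known product of tip cells, the leading cells of vessel sprouts.

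The 250 bases before the annotated start are shown for the 3 aerocyte genes, since Car4 and Ednrb were found together in cells of both libraries whereas the share of Apln cells that also held Car4 differed between the libraries (88.3% and 19.0% in endothelial-like clusters, described with the co-detection). The sequences are from RefSeq on GRCm38.p6, each read 5′ to 3′ on the gene's own strand, and capitals mark GGAA or its reverse complement TTCC, the core bound by ETS factors. The table of promoters listed 3 of the 8 genes. The windows are chr11:84957504-84957753 (plus strand) for Car4, chr14:103843702-103843951 (minus strand) for Ednrb and chrX:48034854-48035103 (minus strand) for Apln. The Ednrb window lies inside the gene span given below, which is from GENCODE, so it does not precede the start in that annotation.
Car4: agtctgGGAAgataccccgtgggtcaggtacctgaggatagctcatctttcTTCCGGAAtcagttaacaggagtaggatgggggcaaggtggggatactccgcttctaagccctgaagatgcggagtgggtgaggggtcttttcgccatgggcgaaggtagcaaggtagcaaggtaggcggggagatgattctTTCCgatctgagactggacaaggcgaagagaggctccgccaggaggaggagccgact
Ednrb: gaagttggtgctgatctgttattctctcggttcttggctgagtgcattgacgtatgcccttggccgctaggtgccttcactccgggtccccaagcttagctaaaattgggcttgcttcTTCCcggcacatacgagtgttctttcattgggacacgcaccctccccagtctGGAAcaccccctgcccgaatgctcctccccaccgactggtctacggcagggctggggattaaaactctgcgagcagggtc
Apln: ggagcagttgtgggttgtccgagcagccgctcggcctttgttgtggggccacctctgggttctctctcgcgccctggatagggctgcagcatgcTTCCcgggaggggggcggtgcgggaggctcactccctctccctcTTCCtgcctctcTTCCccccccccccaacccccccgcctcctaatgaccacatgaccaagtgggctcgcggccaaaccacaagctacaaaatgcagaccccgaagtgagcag
On both strands together, GGAA occurred 4 times in the Car4 window, 2 times in that of Ednrb and 3 times in that of Apln, and it was present in 93.4% of 32851 promoters of the same length. AGGAAG, which contains GGAA, and ACAAAG each occurred 1 time in the Apln window and not in the other 2 windows, against 29.5% and 16.5% of all promoters. A search for AGATAA found it in none of the 3 windows and in 9.99% of all promoters. The same search with GTAAACA gave none of the 3 windows and 3.17% of promoters, and with TATAAA none of the 3 windows and 12.4% of promoters. These are matches of letters and describe no binding.

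The gate was first set against clusters and marker genes, and it held cells beyond the endothelium. The gated share was 40.6% (38.6 to 42.5) of the low-burden and 9.26% (8.26 to 10.4) of the high-burden cells, or 16.9% of the latter when metastatic-like cells were left out. Clusters were built without the 8 genes and the 3 gate genes, and 471 gated low-burden cells (47.0%) and 123 gated high-burden cells (43.8%) lay in endothelial-like clusters. Pecam1, a junction protein of all endothelium, had a UMI in 96.8% and 96.7% of these. A further 17.3% of gated cells at low burden and 45.6% at high burden lay in mixed clusters, and 35.7% and 10.7% in clusters named for other classes, among them 134 fibroblast-like and 91 alveolar macrophage-like cells at low burden. The median gate score was 82.3 and 46.4 per 10000 UMIs in endothelial-like clusters but 7.17 and 6.80 in the other named classes, close to the limit of 5. At low burden 237 gated cells (23.6%) passed on 3 or fewer UMIs of the gate genes, against 8 (2.85%) at high burden. Each level is therefore given for all gated cells and for those in endothelial-like clusters.

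Depth and markers of other cells also differed. The libraries held 14041471 and 52723173 UMIs over 2668 and 3121 barcodes, and the median kept high-burden cell had 3.44 times the UMIs of the median low-burden cell. Gated cells had medians of 4014 and 8792 UMIs, so detection is compared after thinning each cell to 2000 UMIs. The libraries shared 11 barcodes, 1 of them in a gated cell. Of the 9 markers of metastatic-like cells, the summed level in gated cells was 66.2 UMIs per 1000000 (CPM) in the low-burden library and 609 CPM in the other, with 0 and 3 of the 9 found in 25% or more of cells. In metastatic-like cells outside the gate it was 3112 CPM. Fibroblast markers were at 3487 and 1704 CPM in gated cells, alveolar macrophage markers at 1095 and 33.3 CPM, and monocyte or macrophage markers at 230 and 1206 CPM. The part of these cells in the levels below was not tested, and in summed counts fewer expressing cells and less RNA per cell cannot be told apart.

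Among the aerocyte genes, Car4 and Ednrb were lower and Apln was higher at high burden. Car4 (chr11:84957786-84966044, plus strand) encodes a carbonic anhydrase anchored on the capillary surface. It stood at 814 CPM at low burden (4649 UMIs) and 468 CPM at high burden (1488 UMIs), a log2 ratio of -0.80 (-0.89 to -0.72). In endothelial-like clusters the levels were 1332 and 462 CPM, a log2 ratio of -1.53 (-1.65 to -1.41). Ednrb (chr14:103814625-103844402, minus strand) encodes an endothelin receptor. It stood at 117 CPM (667 UMIs) and 61.6 CPM (196 UMIs), a log2 ratio of -0.92 (-1.16 to -0.69), and the ratio was -1.51 (-1.84 to -1.20) in endothelial-like clusters. Apln (chrX:48025146-48034853, minus strand) went the other way. Its level was 64.6 CPM at week 1 (369 UMIs) and 161 CPM at high burden (512 UMIs), a log2 ratio of 1.32 (1.12 to 1.51). In endothelial-like clusters Apln stood at 104 and 263 CPM, a log2 ratio of 1.35 (1.12 to 1.58).

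The general capillary genes differed less between the libraries. Aplnr (chr2:85136225-85139923, plus strand), the apelin receptor, stood at 98.6 and 83.6 CPM in gated cells, a log2 ratio of -0.24 (-0.45 to -0.03). Gpihbp1 (chr15:75596628-75599481, plus strand) carries lipoprotein lipase to the luminal face of capillaries. It stood at 723 and 668 CPM, a log2 ratio of -0.11 (-0.19 to -0.04). Its direction turned when cells were weighted equally (0.10), when each cell was thinned (0.09) and when cells carrying metastatic markers were removed (0.03). Plvap (chr8:71497765-71511752, minus strand), which forms the diaphragms of fenestrae and caveolae, stood at 624 and 494 CPM, a log2 ratio of -0.34 (-0.42 to -0.25). In endothelial-like clusters all 3 were further apart, with log2 ratios of -0.50 (-0.78 to -0.23) for Aplnr, -0.66 (-0.76 to -0.56) for Gpihbp1 and -0.80 (-0.92 to -0.69) for Plvap.

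Of the genes of larger vessels, Vwf was lower at high burden and the interval for Vcam1 included no difference. Vwf (chr6:125546774-125686679, plus strand) encodes von Willebrand factor, the platelet-binding protein stored in endothelial granules. It stood at 196 CPM (1119 UMIs) and 98.7 CPM (314 UMIs), a log2 ratio of -0.99 (-1.18 to -0.81), and at 386 and 153 CPM in endothelial-like clusters, a log2 ratio of -1.33 (-1.54 to -1.13). Vcam1 (chr3:116109949-116129688, minus strand), an adhesion molecule for leukocytes, stood at 69.2 CPM (395 UMIs) and 81.1 CPM (258 UMIs), a log2 ratio of 0.23 (-0.00345 to 0.46). In endothelial-like clusters Vcam1 stood at 68.3 and 83.6 CPM, a log2 ratio of 0.29 (-0.05 to 0.63). In the high-burden library 1 cell held 15.3% of the gated Vwf UMIs and 1 cell held 16.3% of those of Vcam1.

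Read against all genes, 1 of the 8 was 2-fold or more higher in gated cells (Apln) and 0 were 2-fold or more lower. The log2 ratio of Apln was under 2-fold, at 0.73, in thinned cells and at 0.84 with cells weighted equally. Of 8468 genes with at least 50 UMIs and a UMI in 10% or more of gated cells of either library, 3.45% were that much higher and 2.43% that much lower, and all 8 genes passed this filter. The median log2 ratio was -0.29 over the 8 genes and -0.05 over all genes tested. In endothelial-like clusters 1 of the 8 was 2-fold or more higher (Apln) and 3 were 2-fold or more lower (Car4, Ednrb and Vwf), against 5.87% and 6.62% of 7583 genes, with medians of -0.73 over the 8 and -0.14 over all genes. The gate genes themselves were lower too, with log2 ratios in endothelial-like clusters of -1.23 for Cldn5, -0.85 for Cdh5 and -1.01 for Ramp2.

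**Figure D1:**
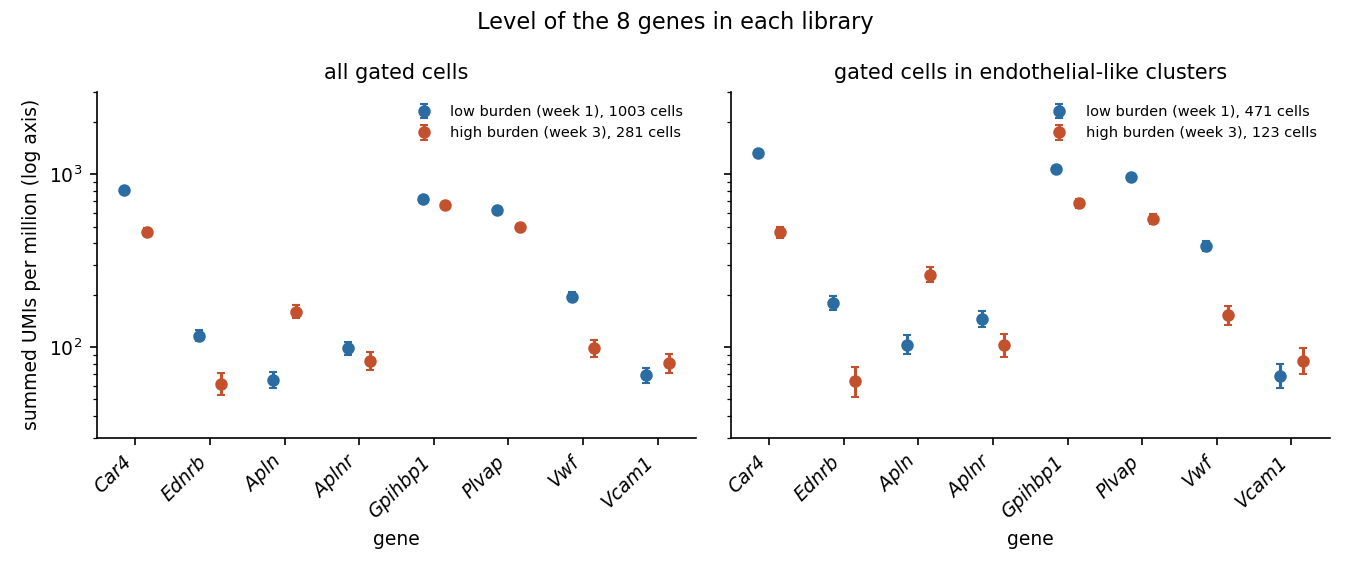
Summed CPM (log axis) of the 8 genes in the low-burden (blue) and high-burden (orange) library, for all gated cells (left) and for gated cells in endothelial-like clusters (right), with exact Poisson 95% intervals that cover counting error only. Apln was the gene furthest above its low-burden level, at 161 against 64.6 CPM in gated cells.

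The endothelial-like cells were made up of different clusters in the 2 libraries, and the ratios differed between these clusters. All 8 were nearer 0 in cluster 3 than over both clusters, whereas in cluster 11 those of Apln, Aplnr, Plvap, Vwf and Vcam1 lay further from 0. Of these, the ratios of Aplnr (1.25) and Vcam1 (-1.33) lay there in the opposite direction. Cluster 3, a cluster of capillary genes, held 82.2% of the endothelial-like gated cells at low burden (387 cells) and 52.0% at high burden (64 cells). Cluster 11, whose leading genes include those of veins and lymphatics as well as Apln, held 17.8% (84 cells) and 48.0% (59 cells). Within cluster 3 Car4 stood at 1624 and 1145 CPM, a log2 ratio of -0.50 (-0.63 to -0.38), and Gpihbp1 at 1260 and 1251 CPM, a log2 ratio of -0.01 (-0.14 to 0.11). Apln in cluster 3 stood at 114 and 79.2 CPM, a log2 ratio of -0.53 (-1.04 to -0.04), which is the opposite direction to that over all gated cells. Cluster 9, which carries both endothelial and fibroblast markers, gave a log2 ratio of -0.13 (-0.65 to 0.38) for Apln and of -0.02 (-0.15 to 0.11) for Gpihbp1.

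In cluster 11 Apln stood at 59.8 CPM at low burden (28 UMIs) and 355 CPM at high burden (377 UMIs), a log2 ratio of 2.57 (2.01 to 3.18). Vwf went from 1562 CPM at low to 201 CPM at high burden, a log2 ratio of -2.96 (-3.19 to -2.74), and Vcam1 from 293 to 117 CPM, a log2 ratio of -1.33 (-1.69 to -0.96). The cluster did not hold the same cells in both libraries. Its lymphatic genes Mmrn1 and Prox1 stood at 861 and 150 CPM at low burden but 12.3 and 5.65 CPM at high burden, and Lyve1 at 1004 and 119 CPM. Median depth was 4131.5 and 14797 UMIs, and the 9 metastatic markers summed to 226 and 1113 CPM, with 1 and 7 of them in 25% or more of cells. In cluster 3 these markers summed to 85.8 and 324 CPM. Their part in the ratios was not tested.

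**Figure D2:**
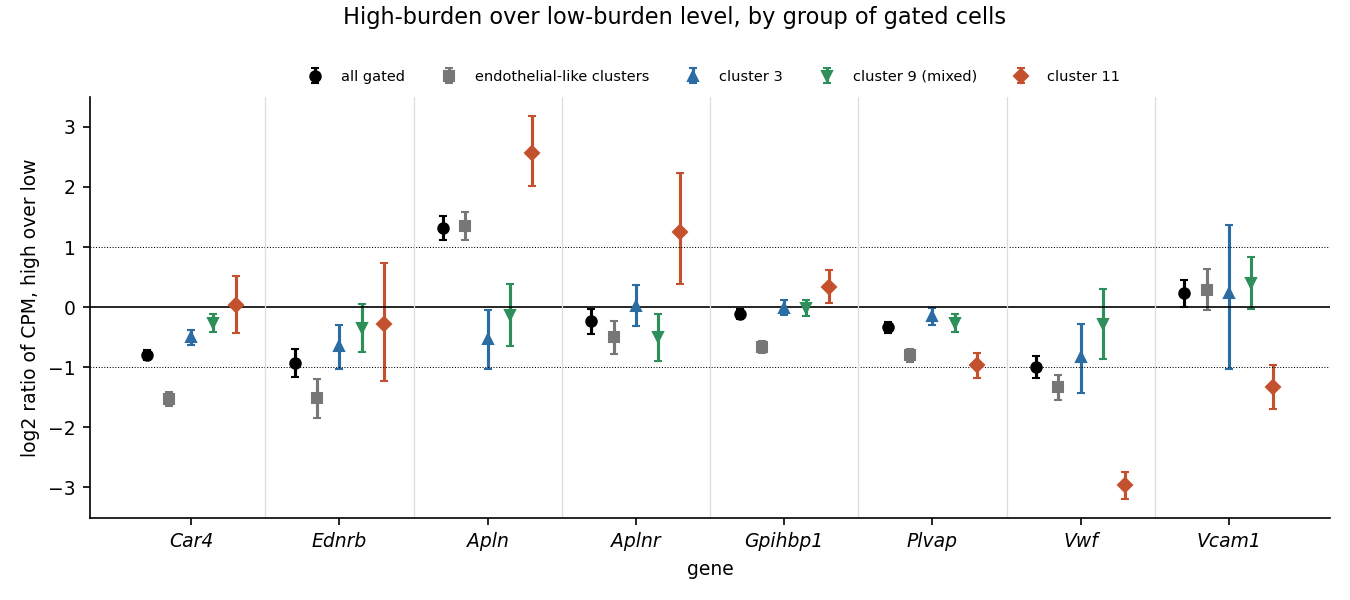
Log2 ratio of high-burden over low-burden CPM for the 8 genes in all gated cells, in endothelial-like clusters and in clusters 3, 9 and 11 alone, with 95% counting intervals, the solid line marking equal levels and the dotted lines a 2-fold difference. Apln lay at 2.57 in cluster 11 but at -0.53 in cluster 3, and Vwf at -2.96 in cluster 11 but at -0.83 in cluster 3.

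Over all gated cells at equal depth, Gpihbp1 was the gene whose share of cells with a UMI differed beyond counting error in every draw of UMIs. This did not hold in endothelial-like clusters alone. At 2000 UMIs per cell, Car4 was found in 39.9% of gated cells at low and 42.0% at high burden (51.8% and 65.1% before thinning), and the difference of 2.11 points had an interval of -4.50 to 8.85. Apln was found in 9.57% and 12.1% of cells (18.8% and 36.7% before thinning), a difference of 2.53 points (-1.56 to 7.26). Gpihbp1 was found in 47.0% and 60.5% (58.1% and 83.6% before thinning), a difference of 13.5 points (6.78 to 20.1). Vcam1 differed by 5.06 points (0.728 to 10.0), from 9.17% to 14.2% (18.4% and 36.7% before thinning). These are the shares of 1 draw, in which the interval lay above 0 for Gpihbp1 and Vcam1. In 20 further draws it lay above 0 in 20 for Gpihbp1, 15 for Plvap, 12 for Apln, 5 for Vcam1 and 2 for Car4, and below 0 in 6 for Ednrb and 1 for Aplnr. For Vwf it included 0 in all 20, so that for 6 of the 8 genes this reading depends on the draw. The median difference over these draws was 5.18 points for Apln and 3.01 points for Vcam1. In endothelial-like clusters the median for Gpihbp1 was -4.33 points, and its interval included 0 in all 20 draws. There the interval for Ednrb lay below 0 in 16 of the 20 draws, with a median of -10.0 points.

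The remaining genes sat between these. Plvap was found in 45.6% and 52.0% of thinned cells (58.9% and 84.3% before thinning), a difference of 6.39 points (-0.390 to 13.1). Aplnr was found in 16.3% and 13.5% (28.2% and 42.0% before thinning), Ednrb in 13.8% and 11.03% (26.5% and 35.2%) and Vwf in 10.2% and 9.25% (16.1% and 18.2%). B-like and T-like cells outside the gate, which should lack these genes, served as a reference for free RNA. They numbered 194 cells at a median of 3392 UMIs at low burden and 73 cells at 6607 UMIs at high burden. Before thinning they held a Car4 UMI in 22.2% and 13.7% of cells, a Gpihbp1 UMI in 14.4% and 10.96%, a Plvap UMI in 13.9% and 5.48% and a UMI of each of the other 5 genes in 1.37% to 5.48%. After thinning their Car4 share was 12.4% and 2.74%. All 8 genes were found in a larger share of gated cells than of these lymphocytes in both libraries, before and after thinning. The reference left out the cells that passed the gate, 37 of 182 T-like and 7 of 56 B-like cells at low burden. At high burden it left out 0 of 34 T-like and 1 of 40 B-like cells. Because the cells left out had the highest gate scores, the reference can understate free RNA. How far the gated shares exceed free RNA was therefore not settled.

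Apln was held by few cells in both libraries, with the top 10% of gated cells holding 75.9% of its UMIs at low and 80.3% at high burden. At high burden a single cell carried 78 of its 512 gated UMIs (15.2%). There 6 of 281 gated cells held at least 50% of them, and at low burden it took 46 of 1003 cells to reach that share. The mean number of Apln UMIs in a cell that had any was 1.95 at low and 4.97 at high burden, while for Car4 it was 8.94 and 8.13. These means are from unthinned cells, at median depths of 4014 and 8792 UMIs. Vwf was concentrated in both libraries, with the top 10% of gated cells holding 94.6% and 91.4% of its UMIs, against 44.2% and 31.2% for Gpihbp1.

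Over all gated cells, Car4 and Ednrb were found together, as were the general capillary genes. In thinned gated cells of the low-burden library, Ednrb was found in 29.3% of cells with Car4 and 3.48% of cells without it, with Pearson r of 0.52 across 1003 cells. At high burden these shares were 20.3% and 4.29%, with r of 0.33 across 281 cells. Gpihbp1 was found in 83.4% of cells with Aplnr and 39.9% of cells without at low burden, and in 81.6% and 57.2% at high burden. Gpihbp1 and Plvap shared 339 low-burden and 115 high-burden cells, with r of 0.56 and 0.40. The cells of a library share its free RNA and depth, and r is given as a description. Only 47.0% and 43.8% of these gated cells lay in endothelial-like clusters, and the part of the other cells in these values was not tested. Of the co-detection shares read again in endothelial-like clusters alone, 4 left their counting interval and 4 did not.

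The pair of larger vessel genes was the one found together most often relative to its single shares in endothelial-like clusters. There Vcam1 was found in 31.6% of cells with Vwf and 2.55% of cells without at low burden, and in 41.2% and 4.72% at high burden. The 25 and 7 cells with both were 4.26 and 4.22 times the product of the single shares. Vcam1 was seldom found with Gpihbp1, in 3.16% of endothelial-like cells with it and 16.1% of those without at low burden, and in 2.35% and 26.3% at high burden. Plvap lay across the groups: it was found in 82.3% and 70.6% of the endothelial-like cells with Vwf.

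The partners of Apln and Car4 differed between the libraries. In endothelial-like clusters at low burden, Car4 was found in 88.3% of the 77 thinned cells with Apln and 46.7% of those without, and Ednrb in 54.5% and 16.2%. At high burden, Car4 was found in 19.0% of the 21 cells with Apln and 50.0% of those without, and Ednrb in 4.76% and 16.7%. Gpihbp1 was found in 52.0% of Apln cells against 70.1% of other cells at low burden, and in 81.0% against 66.7% at high burden. Between Car4 and Gpihbp1, r was -0.26 at low and 0.31 at high burden, and between Car4 and Plvap it was -0.37 and 0.12. These shares and r pool clusters 3 and 11, and cluster 11 held 17.8% and 48.0% of the endothelial-like gated cells. Car4, Gpihbp1 and Plvap each stood lower in cluster 11 than in cluster 3 in both libraries. The high-burden levels in clusters 3 and 11 were 1145 and 121 CPM for Car4 and 1251 and 397 CPM for Gpihbp1. The part of this mix of clusters in the shares and in r was not tested. Apln and Aplnr, ligand and receptor, were found together in 10 endothelial-like cells at low burden, 0.50 times the product of their shares, and in 3 cells at high burden, 0.88 times the product. No test between the libraries was made.

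Each thinned cell was then assigned to the set of genes with the most UMIs, where that was at least 2 UMIs and at least 2 times the next set. The sets were Car4, Ednrb and Apln (the Car4 set), Aplnr, Gpihbp1 and Plvap (the Gpihbp1 set), and Vwf and Vcam1 (the Vwf set), and they cut a range rather than define cell types. The Car4 set took 161 gated cells at low burden (16.1%) and 42 at high burden (14.9%), a difference of -1.11 points (-5.74 to 4.11). The Gpihbp1 set took 319 (31.8%) and 108 (38.4%), a difference of 6.63 points (0.182 to 13.2). The Vwf set took 55 (5.48%) and 9 (3.20%), a difference of -2.28 points (-4.63 to 0.808). In 20 further draws the interval lay above 0 in 14 for the Gpihbp1 set and below 0 in 2 for the Car4 set, and it included 0 in all 20 for the Vwf set. A further 84 (8.37%) and 41 (14.6%) cells had no set with such a lead, of which 71 and 29 were divided between the Car4 and Gpihbp1 sets, and 384 (38.3%) and 81 (28.8%) had under 2 UMIs in every set.

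In endothelial-like clusters the Car4 and Gpihbp1 sets took a smaller share of all cells at high burden, by a size that depends on the draw. This did not hold for the Gpihbp1 set among cells assigned to a set. The Car4 set took 23.6% of cells at low and 17.1% at high burden, the Gpihbp1 set 46.9% and 39.8%, and the Vwf set 8.49% and 5.69%. For the Gpihbp1 set the difference was -7.08 points (-16.9 to 3.21), opposite in sign to that over all gated cells. The intervals of all 3 sets included 0 in this draw. In the 20 further draws the interval lay below 0 in 13 for the Car4 set, with a median difference of -9.39 points, and in 7 for the Gpihbp1 set, with a median of -9.33 points. Of the endothelial-like cells, 64 (13.6%) and 22 (17.9%) were mixed and 35 (7.43%) and 24 (19.5%) unassigned, the last with median depths of 3719 and 17376 UMIs. Among the 372 and 77 cells assigned to a set, the Car4 set held 29.8% at low and 27.3% at high burden. The Gpihbp1 set held 59.4% and 63.6% of them. The 35 unassigned cells of the low-burden library carried lymphatic genes, with Mmrn1 at 1633 CPM, Lyve1 at 602 CPM and Prox1, the factor that sets lymphatic identity, at 269 CPM. Counted another way, 214 gated low-burden cells (21.3%) and 38 gated high-burden cells (13.5%) had none of the 8 genes after thinning, against 11 (2.34%) and 8 (6.50%) in endothelial-like clusters, and no cell had more than 6.

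**Figure D3:**
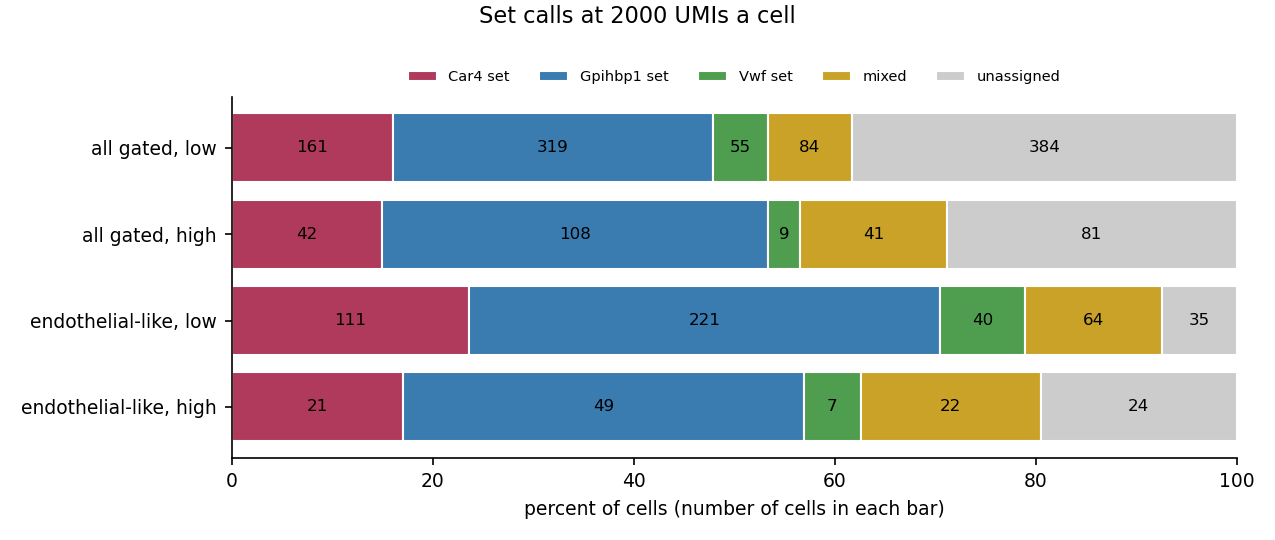
Percent of cells, thinned to 2000 UMIs, assigned to each set of genes, as mixed or as unassigned, with the number of cells in each bar segment, for all gated cells and for gated cells in endothelial-like clusters of each library. The Gpihbp1 set was the largest assigned set in each bar, and unassigned cells took 384 of 1003 gated low-burden cells but 35 of 471 in endothelial-like clusters.

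Genes outside the 8 also differed between the sets. Genes were compared between sets where they had 20 or more UMIs over both and a UMI in 10% or more of the cells of either. Where a list holds genes that passed only through the set in which they were higher, no count or median is given over the genes that passed. The aerocyte list (Fibin, Tbx2, Emcn, Prx, Chst1, Rprml and Kdr) was compared between the Car4 and Gpihbp1 sets of endothelial-like cells. All 7 genes passed at low burden, Fibin and Chst1 only through the Car4 set. Chst1, a sulfotransferase, stood at 223 CPM in the Car4 set and 24.4 CPM in the Gpihbp1 set, and Tbx2, a transcription factor, at 262 and 45.8 CPM. Kdr, the main VEGF receptor, stood at 1067 and 344 CPM, and Emcn, a sialomucin of capillaries and veins, at 535 and 362 CPM. At high burden 1 of the 6 list genes that passed was 2-fold or more higher (Tbx2, at 134 and 46.9 CPM), with a median of 0.56, against 3.05% of 5467 genes and a median of -0.01. Kdr stood at 641 and 437 CPM.

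The general capillary list ran in the opposite order. Of its 8 genes 6 passed at low burden, and 3 of them (Cd93, Ptprb and Sema3c) were 2-fold or more lower in the Car4 set than in the Gpihbp1 set, with a median of -1.005, against 4.99% of all genes. Ptprb, a phosphatase of the Tie2 pathway, stood at 344 CPM in the Car4 set and 1046 CPM in the Gpihbp1 set, and Sema3c, a secreted semaphorin, at 743 and 1511 CPM. Hpgd, which breaks down prostaglandins, stood at 1191 and 1188 CPM. At high burden 0 of 6 were 2-fold or more lower, with a median of -0.56, against 4.76% of genes, and Cd93, a surface glycoprotein of endothelium, stood at 755 and 857 CPM in the 2 sets.

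Genes of the venous list were compared between the Vwf set and the Gpihbp1 set. Of its 9 genes 7 passed at low burden, 5 of them (Slc6a2, Nr2f2, Cpe, Amigo2 and Selp) only through the Vwf set. At high burden 5 passed, Ackr1 only through the Vwf set, which there held 7 endothelial-like cells. Prss23, a serine protease, stood at 1608 CPM in the Vwf set and 161 CPM in the Gpihbp1 set at low burden, and at 1316 and 410 CPM at high burden. Nr2f2, the transcription factor that sets venous fate, stood at 143 and 36.6 CPM at low burden and at 174 and 21.7 CPM at high burden. Ackr1, a chemokine-binding receptor of venules, had 4 UMIs in each set at low burden, and at high burden it had 40 UMIs (634 CPM) in the Vwf set and 0 in the Gpihbp1 set. In the low-burden Vwf set the arterial gap junction gene Gja5 stood at 217 CPM, against 16.3 CPM in the Gpihbp1 set, and Lyve1 stood at 1474 CPM. Gja5 too passed the filter only through the Vwf set.

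Cells rich in Apln were examined apart, as those with 5 or more Apln UMIs per 10000, a limit set after the values were seen. They numbered 33 of 1003 gated cells at low burden (3.29%, 2.28 to 4.59) and 18 of 281 at high burden (6.41%, 3.84 to 9.94), and held 29.8% and 70.9% of the gated Apln UMIs. At low burden 28 lay in cluster 3 and 2 in cluster 11, and at high burden 3 lay in cluster 3 and 14 in cluster 11. Their median depths were 3616 and 11268.5 UMIs, and they held 110 and 363 Apln UMIs. The limit was set on unthinned cells, so a cell of lower depth passes it on fewer Apln UMIs. The 2 groups and their shares are therefore not alike in the evidence behind each cell. Apln-rich cells were taken from the whole gate, so 1 and 0 of them lay in mixed clusters and 2 and 1 in other classes. All were compared with the endothelial-like gated cells below the limit in their own library.

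The low-burden Apln-rich cells stood higher in aerocyte genes. Car4 stood at 3543 CPM in them and 1210 CPM in the other endothelial-like cells, a log2 ratio of 1.55 (1.41 to 1.69), and Ednrb at 548 and 160 CPM. Gpihbp1 was lower in them, at 503 and 1105 CPM, as was Plvap, at 413 and 998 CPM. Of the aerocyte list 5 of 7 were 2-fold or more higher, with a median of 1.21, against 7.09% of 6246 genes and a median of 0.00. Of the tip cell list (Esm1, Angpt2, Pgf, Kcne3, Nid2, Trp53i11, Cxcr4 and Dll4) 2 passed the filter and 1 was higher. Esm1, a proteoglycan secreted by sprouting endothelium, had 5 UMIs in these cells (37.5 CPM, against 17.9 CPM in the others).

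The high-burden Apln-rich cells stood higher in tip cell genes and lower in Car4. Car4 stood at 95.3 CPM in them and 554 CPM in the other endothelial-like cells, a log2 ratio of -2.54 (-3.10 to -2.03), and Emp2, a membrane protein abundant in aerocytes, at 140 and 701 CPM. Gpihbp1 stood at 885 and 624 CPM, a log2 ratio of 0.50 (0.31 to 0.70), and Vwf had 1 UMI in all 18 cells. Esm1 stood at 918 and 32.3 CPM, a log2 ratio of 4.83 (4.36 to 5.34), and was found in 13 of the 18 cells. Angpt2, the Tie2 ligand that loosens vessels, stood at 515 and 30.7 CPM, Pgf, a VEGF family ligand, at 203 and 25.2 CPM, and Cxcr4, a chemokine receptor of sprouting cells, at 146 and 15.0 CPM. Dll4, the Notch ligand of tip cells, stood at 152 and 78.0 CPM, a log2 ratio of 0.96 (0.45 to 1.46). All 8 genes of the tip cell list passed the filter, but Esm1, Pgf, Kcne3 and Nid2 passed only through the Apln-rich cells, and the 8 genes summed to 2714 and 285 CPM. The 7 aerocyte genes summed to 1082 and 997 CPM, but single genes of this list differed in both directions. In the Apln-rich cells 4 of the 7 were 2-fold or more lower, against 16.6% of 7599 genes. Another 2 were that much higher, against 5.15% of genes, and of these Fibin passed the filter only through the Apln-rich cells.

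Markers of metastatic cells did not run with Apln at high burden: they summed to 289 CPM in the 18 cells and 995 CPM in the other endothelial-like cells, with 0 of 7 that passed 2-fold or more higher and 6 that much lower, against 5.15% and 16.6% of 7599 genes. At low burden they summed to 278 and 103 CPM. Genes of cell division summed to 501 and 665 CPM at high burden. Between the libraries, the 8 tip cell genes summed to 191 CPM at week 1 and 755 CPM at week 3 in endothelial-like clusters. Of the 6 that passed the filter there, Esm1, Angpt2, Pgf and Cxcr4 did so only through the high-burden cells.

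**Figure D4:**
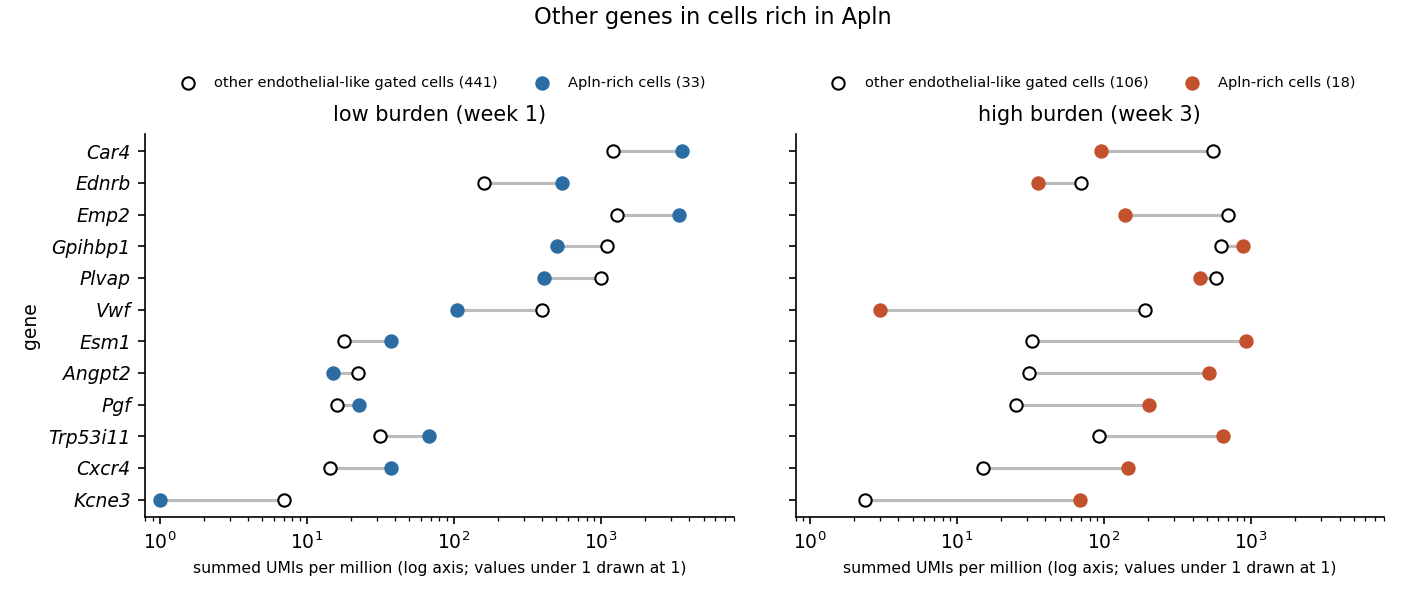
Summed CPM (log axis, values under 1 drawn at 1) of 12 genes in Apln-rich cells (filled) and in the other gated cells of endothelial-like clusters (open), in the low-burden (left) and high-burden (right) library. Car4 was higher in Apln-rich cells at low burden (3543 against 1210 CPM) and lower in them at high burden (95.3 against 554 CPM), where Esm1 stood at 918 against 32.3 CPM.

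Known partners of the 8 proteins were read from a further list of 9 genes, of which 3 passed the filter in endothelial-like clusters and 1 was 2-fold or more lower at high burden, against 6.62% of 7583 genes. That gene was Edn1, which encodes the endothelin peptide that Ednrb binds, at 405 and 153 CPM, a log2 ratio of -1.40 (-1.61 to -1.20). Itgb1, the integrin chain that pairs with Itga4 to bind Vcam1, stood at 418 and 363 CPM, and Lpl, the lipase carried by Gpihbp1, at 50.5 and 32.7 CPM. Apela, the second ligand of Aplnr, had 0 UMIs in both libraries. Of 5 adhesion genes 2 passed, with 1 that much lower, Icam1, a leukocyte ligand like Vcam1, at 158 and 69.1 CPM, and Icam2 at 1413 and 711 CPM, a log2 ratio of -0.99 (-1.09 to -0.89).

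Outside the gate, 3 of the 8 genes had a further site of high level. Ednrb was concentrated in cluster 16, a monocyte or macrophage-like cluster led by Saa3, Retnla, Marco and Wfdc17, of which 94 cells were in the high-burden library and 1 in the low-burden library. Its 517 Ednrb UMIs stood at 508 CPM (465 to 554), were found in 89.4% of the cells and made up 58.9% of all Ednrb UMIs of the library, against 22.3% in gated cells. The gated high-burden cells stood at 61.6 CPM. The other Ednrb site was smooth muscle or pericyte-like cells at low burden, with 29 UMIs (63.7 CPM, 42.7 to 91.5). At low burden gated cells held 89.3% of the Ednrb UMIs. A cluster made up of 1 library may reflect that library.

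Most Vcam1 UMIs lay outside the gate. Fibroblast-like cells outside the gate stood at 224 CPM at low burden (202 to 248) and 316 CPM at high burden (254 to 389), and mesothelial-like cells at high burden at 220 CPM (193 to 250), all above the 69.2 and 81.1 CPM of gated cells. Metastatic-like cells stood at 55.9 CPM (1393 cells, median 21862 UMIs) and held 65.5% of the Vcam1 UMIs of the high-burden library. Gated cells held 48.6% of the Vcam1 UMIs at low and 9.18% at high burden. Within the gate, the 174 low-burden and 128 high-burden cells of mixed clusters carried 7 and 6 of 8 fibroblast markers in 25% or more of cells, beside the Vcam1 level of gated cells. Their part in it was not tested.

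Car4 had its further site in alveolar macrophage-like cells of the low-burden library, at 231 CPM (206 to 257), with a UMI in 47.2% of 381 cells. The next named low-burden classes outside the gate were AT1-like cells at 78.7 CPM (39.3 to 141), ciliated-like cells at 73.9 CPM and B-like cells at 61.3 CPM. The high-burden library held 3 such macrophages outside the gate. Of all Car4 UMIs, 87.6% at low and 64.9% at high burden lay in gated cells. For Apln, Aplnr, Gpihbp1, Plvap and Vwf the gated share of UMIs lay between 90.2% and 93.5% at low burden and between 55.6% and 71.4% at high burden, and outside the gate no named class of 10 or more cells reached their gated level.

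**Figure D5:**
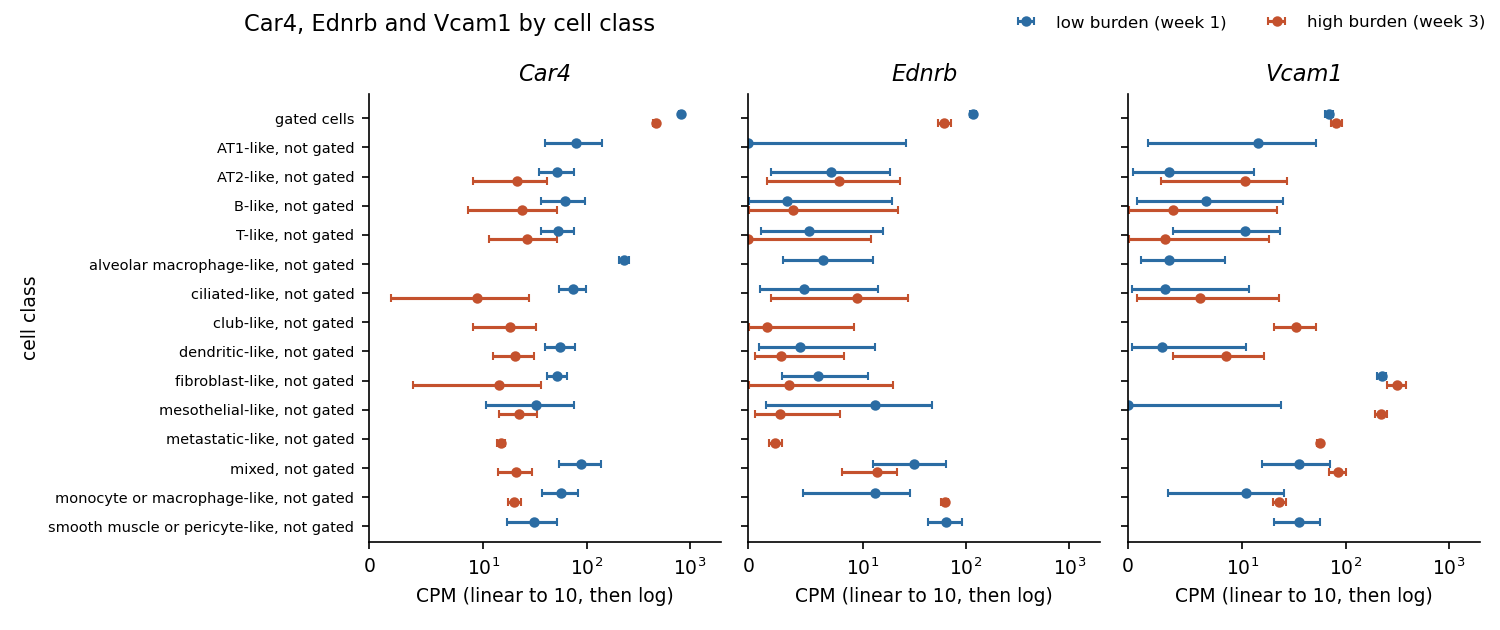
Car4, Ednrb and Vcam1 in gated cells and in each cell class outside the gate, in CPM (axis linear to 10 and logarithmic above) with exact Poisson 95% intervals, for the low-burden (blue) and high-burden (orange) library. Alveolar macrophage-like cells stood out for Car4 (231 CPM), monocyte or macrophage-like cells at high burden for Ednrb (62.2 CPM over the class) and fibroblast-like cells for Vcam1 (224 and 316 CPM).

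The genes most like each of the 8 were taken by Pearson r of log values across the 1003 gated low-burden cells, over 6297 genes, with r across the 281 high-burden cells beside it. The cells of a library share depth and free RNA, and r carries no test. For Car4 they were Emp2 (0.64 and 0.77), Cyp4b1 (0.63 and 0.80) and Kdr (0.63 and 0.66), and the same 3 genes led for Ednrb. For Apln, Emp2 led at low burden with 0.46, but r between them was 0.00 at high burden. For Aplnr the first was Sema3c (0.48 and 0.35), for Gpihbp1 Cd93 (0.67 and 0.59) and for Plvap Ptprb (0.72 and 0.61). For Vwf it was Lyve1 (0.60 and 0.57), followed by Car8 and Prss23. For Vcam1 the first 3 were the matrix genes Ltbp4, Mgp and Bgn, at 0.40 to 0.44 and 0.24 to 0.32. Within the 471 and 123 endothelial-like cells the leading gene for both Vwf (0.78 and 0.81) and Vcam1 (0.62 and 0.52) was instead Cytl1, a small secreted protein.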

How the data were processed

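Single-cell RNA was captured in droplets (10x Genomics) from dissociated whole lungs. The sample titles give the groups. The authors ran Cell Ranger 2.0.2 on mm10, to which a transgene sequence had been added, and deposited raw UMI counts of each gene in each cell, not normalized. The study also aggregated the libraries, and the sources do not say on which side of that step these counts lie.

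Cells with 1000 to 7000 genes and at most 10% mitochondrial UMIs were kept, the limits of the study (195 low-burden and 88 high-burden barcodes removed). The 8 genes and all gene lists were chosen with earlier results of these data known. Genes are named as the 8 genes, the gate genes, members of the lists and, for each of the 8, the 3 genes with the highest r. Positions are from GENCODE M21 (GRCm38). Cells of both libraries were clustered together with scanpy 1.11.5 (2000 variable genes, 10 principal components, 15 neighbours, Leiden resolution 1, no integration), and clusters were named "-like" from marker lists, so these names need not match those of the study. Scrublet marked 3 low-burden and 8 high-burden cells (0.121% and 0.264%), too few for it to have worked, and doublets were kept.

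UMIs were summed over cells and scaled to 1000000 (CPM). Exact Poisson intervals were used for levels, Clopper-Pearson intervals for shares, and the exact conditional binomial interval for each ratio. The interval of a difference of shares was built from both single intervals. Thinning drew 2000 UMIs per cell without replacement, which no gated cell fell below, and was repeated 20 times. Genes were compared between libraries where they had 50 or more UMIs, and between sets or groups of cells where they had 20 or more, in both cases with a UMI in 10% or more of the cells of either side. Interval code was tested on simulated data. Ccl21a occurs under more than 1 identifier and was left out of the sums. Alternatives included other gates, thinning depths, scalings and subsets of cells.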

Additional observations from a re-analysis of the deposited data

How the results depend on the processing

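With 1 library per group, a share, level or ratio had no test, and a value is said to move where it left its own counting interval. Of the gated share, detection, level and set share results, 120 of the alternative values stayed within that interval and in direction, 51 moved and 11 turned in direction, and the cause was not tested. The gated share was 58.1% and 14.1% with a gate of 3 and 28.7% and 7.75% with a gate of 10 per 10000 UMIs. Restricting gated cells to endothelial-like clusters gave log2 ratios of -1.53 for Car4, -1.51 for Ednrb, -0.50 for Aplnr, -0.66 for Gpihbp1, -0.80 for Plvap and -1.33 for Vwf. Removing cells with UMIs of other compartments gave -1.24 for Car4, -1.31 for Ednrb, 1.03 for Apln, -0.49 for Aplnr, -0.49 for Gpihbp1, -0.73 for Plvap and -1.21 for Vwf. With a gate of 3 the ratios were -0.92 for Car4, -0.22 for Gpihbp1 and -0.43 for Plvap, and with a gate of 10 they were -0.90 for Car4, 1.07 for Apln, -0.27 for Gpihbp1 and -0.50 for Plvap. Scaling by the median of ratios, which shifted every log2 ratio by 0.11, gave -0.69 for Car4, -0.0059 for Gpihbp1 and -0.23 for Plvap. Weighting cells equally gave -0.65 for Car4, 0.84 for Apln, 0.10 for Gpihbp1, -0.14 for Plvap and -0.61 for Vwf. Thinned cells gave -0.53 for Car4, -0.69 for Ednrb, 0.73 for Apln, 0.087 for Gpihbp1 and -0.62 for Vwf. Of the alternatives chosen after seeing the data, cluster 3 alone gave -0.50 for Car4, -0.65 for Ednrb, -0.53 for Apln, 0.026 for Aplnr, -0.011 for Gpihbp1 and -0.15 for Plvap. Cluster 11 alone gave 0.037 for Car4, -0.28 for Ednrb, 2.57 for Apln, 1.25 for Aplnr, 0.34 for Gpihbp1, -0.97 for Plvap, -2.96 for Vwf and -1.33 for Vcam1. Removing cells with metastatic markers gave -0.70 for Car4, 0.026 for Gpihbp1 and -0.22 for Plvap. With no filter on low counts, 2250 genes were 2-fold or more higher and 1569 lower, against 292 and 206. The thinned Plvap detection share differed by -2.40 points with a gate of 10. The Car4 set differed by -6.49 points in endothelial-like clusters and -6.66 points without cells of other compartments, and the Gpihbp1 set by -7.08 and -2.54 points there and by -0.11 points with a gate of 10. Leaving out a replicate was not possible with 1 library per group. No paired analysis was possible because each group holds 1 library and the labels number no replicates. Depth limits most the genes of low count, as Ednrb with 196 and Vcam1 with 258 UMIs in gated high-burden cells.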

Other observations

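Genes of cell division, which mark no subtype, were higher at high burden. In gated cells of endothelial-like clusters the 6 division genes summed to 9.11 CPM at low burden (22 UMIs) and 628 CPM at high burden (1000 UMIs). The 5 that passed the filter did so only through the high-burden cells. Over all gated cells they summed to 32.9 and 427 CPM. In the same endothelial-like cells the metastatic markers summed to 113 and 851 CPM, and their part in this difference was not tested.

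The 10 genes of the arterial list summed to 2040 and 2949 CPM in endothelial-like clusters, with 1 of the 8 that passed 2-fold or more higher and 2 lower, and a median log2 ratio of -0.68, against 5.87% and 6.62% of 7583 genes and a median of -0.14. The lymphatic list summed to 635 and 153 CPM there, and both of its genes that passed, Flt4, a VEGF receptor, and Lyve1, a hyaluronan receptor, were 2-fold or more lower at high burden, against the same 6.62% (89.4 and 27.6 CPM for Flt4).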
